A study of Mus musculus with 24 samples.

Results

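The ERBB family of receptor tyrosine kinases and its ligands was followed through contusive spinal cord injury (SCI) in oligodendrocytes (OLs) and in the whole cord. The set was named gene by gene, with no threshold on a measured value. It held 10 of the 21965 genes in the count table, namely the 4 receptors Egfr, Erbb2, Erbb3 and Erbb4, the 3 neuregulins Nrg1, Nrg2 and Nrg3, and the 3 EGF-type ligands Btc, Hbegf and Areg. All 10 passed the filter on low counts. Each member was read in 24 libraries that fell into 8 groups of 3.

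The mice were OL-Ribotag animals, in which a tamoxifen-inducible Cre active in OLs switches on an HA-tagged ribosomal protein, so that polysomes of the recombined cells can be pulled down with an HA antibody. Female mice, 10 to 12 weeks old by the labels and somewhat younger by the study's methods, received a contusion of 50 kdyn at T9 and cords were taken at 2, 10 or 42 days post-injury (dpi). Naive mice carried the same alleles and had no injury, and all changes after SCI are set against the same 3 naive tissues. By the study's text the naive cords were taken on the same day as those of dpi 42, so they match dpi 42 but not dpi 2 or dpi 10 in age and time since tamoxifen. At dpi 2 and dpi 10, injury and these differences cannot be told apart. Each tissue was a pool of 2 mice and gave 1 total RNA library (the lysate before pull-down) and 1 OL library (the HA-bound RNA). The Cre is also active in Schwann cells, so the OL libraries hold RNA of all recombined cells rather than of OLs alone. The study also reported that RNA of other cells, microglia and macrophages among them, appeared to be carried into its OL samples. It therefore kept only OL changes that came with a changed OL enrichment or with a constantly high one. That filter was not applied here, so changes in OLs are changes in OL libraries. In bulk libraries of either kind, fewer cells of a type and less RNA per cell cannot be told apart.

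ERBB receptors signal as pairs. ERBB2 binds no known ligand and acts as the partner of the others. ERBB3 binds some of the neuregulins but has little kinase activity of its own. ERBB4 binds neuregulins and several EGF-type ligands and is an active kinase, and EGFR binds the EGF-type ligands. In the nervous system, axonal NRG1 acting on ERBB2 and ERBB3 of Schwann cells is the best known control of peripheral myelination, neuregulin receptors also occur on the OL lineage, and EGFR is prominent in astrocytes and progenitors.

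The libraries held 25840127 to 32987841 counts. Levels are in CPM, counts relative to library sizes scaled by the trimmed mean of M-values (TMM), and 3 counts in 1 library, the floor used below, correspond to 0.084 to 0.127 CPM. All 8 OL markers passed the test as higher in naive OL than in naive total RNA, and their summed level was 94500 to 165000 CPM in OL libraries against 19100 to 28500 CPM in total RNA. Astrocyte markers summed to 7650 to 14800 CPM in 5 OL libraries, which were naive 3, dpi 2 3, dpi 10 2, dpi 42 1 and dpi 42 2, and to 2240 to 4170 CPM in the other 7, against 6880 to 9440 CPM in total RNA. The same 5 libraries held the 5 highest sums of OPC markers among OL libraries. For 2 dpi 42 libraries the labels disagreed on whether they were OL or total RNA, and their groups were taken from the sample description. Their summed OL markers were 107000 CPM in dpi 42 OL 1 and 23800 CPM in dpi 42 total 2, each within the range of its described kind. Both libraries of dpi 2 tissue 2 held Y-linked counts (2414 and 2604, at most 13 elsewhere), although the labels give female mice. The calls that rest on these libraries are given with and without them, beside the result or together after the ligands. Without the 5 libraries high in astrocyte markers, dpi 42 keeps a single OL library (dpi 42 OL 3), which is assumed to vary like the rest. Each such dpi 42 value then rests on 1 library.

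The receptors lie on chromosomes 1, 10 and 11, and are annotated in GRCm38 at chr11:16752203-16918158 (Egfr, + strand), chr11:98412470-98437716 (Erbb2, + strand), chr10:128567523-128589652 (Erbb3, - strand) and chr1:68032186-69108059 (Erbb4, - strand). Of the 10 members, Erbb2 shares 9 exon bases with Mien1 on the opposite strand and Nrg1 shares 482 with a lincRNA, and neither overlap exceeds 4.66% of the member's exon bases. The promoters of the 2 receptors that moved in opposite directions after SCI in both kinds of library are shown, each from 250 bases before to 50 after the RefSeq start site in GRCm38.p6, with capitals for the only motif match found. 4 motifs were searched on both strands, and none is contained in another. The GC box, written GGGCGG, is held by 35.7% of the 32851 RefSeq promoters of that length. The CCAAT box, a common site close upstream of start sites, was searched as these 5 letters and is held by 37.4%. The TATA box of core promoters was searched as TATAAA and is held by 13.6%. The AP-1 site, bound by Fos and Jun, was searched as TGAGTCA and is held by 5.20%.
Erbb2, chr11:98412234-98412533, + strand: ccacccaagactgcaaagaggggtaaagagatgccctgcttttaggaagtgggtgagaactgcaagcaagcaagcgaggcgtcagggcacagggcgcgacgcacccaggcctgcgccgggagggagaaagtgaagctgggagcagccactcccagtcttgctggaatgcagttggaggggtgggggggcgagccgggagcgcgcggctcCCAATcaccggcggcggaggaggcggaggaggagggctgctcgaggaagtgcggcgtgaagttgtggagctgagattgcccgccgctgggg
Erbb4, chr1:69108010-69108309, - strand: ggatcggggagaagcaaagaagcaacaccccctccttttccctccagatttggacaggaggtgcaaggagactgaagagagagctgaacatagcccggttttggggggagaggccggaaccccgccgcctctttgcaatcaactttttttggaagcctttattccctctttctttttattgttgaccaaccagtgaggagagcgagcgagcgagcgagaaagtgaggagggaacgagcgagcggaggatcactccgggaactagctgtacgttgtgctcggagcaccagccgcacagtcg
The Erbb2 window held 1 CCAAT box, 41 bases before the start site, and a GC content of 66.0%. The Erbb4 window held none of the 4 motifs and had a GC content of 55.3%, against a median of 52.7% over all promoters.

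Erbb3 was the leading ERBB receptor of OLs and the only receptor enriched in OL libraries at each time. In naive cords Erbb3 stood at 216, 238 and 150 CPM in the OL libraries and at 40.1, 35.2 and 26.1 CPM in total RNA. Every OL library was above every total RNA library. The enrichment was 5.96-fold in naive cords (log2 2.57 ± 0.26 SE, q = 2.12e-08, edgeR's quasi-likelihood test with Benjamini-Hochberg adjustment over all 17167 genes tested, n = 3 per group), 4.02-fold at dpi 2 (q = 8.29e-07), 3.46-fold at dpi 10 (q = 3.26e-06) and 3.70-fold at dpi 42 (q = 1.74e-06). Per kb of exon, Erbb3 made up 84.8% ± 6.03 (SD, n = 3) of the 4 receptors together in naive OL libraries and 48.0% ± 5.98 in naive total RNA.

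The level of Erbb3 in OLs was lower at each time after SCI, least firmly at dpi 2. The OL libraries held 160, 144 and 87.3 CPM at dpi 2, 133, 115 and 99.2 CPM at dpi 10, and 67.9, 97.4 and 137 CPM at dpi 42. Only the dpi 2 values overlapped those of naive OL libraries. The summed OL markers in OL libraries stood at 123000 to 165000 CPM in naive cords and 94500 to 117000 CPM at dpi 2. They stood at 143000 to 148000 CPM at dpi 10 and 107000 to 141000 CPM at dpi 42. How far the Erbb3 values follow these sums was not tested. Erbb3 fell by 0.63 ± 0.24 on the log2 scale at dpi 2 (q = 0.0462), by 0.80 ± 0.24 at dpi 10 (q = 0.0258) and by 1.00 ± 0.24 at dpi 42 (q = 0.00335). In total RNA it stood at 26.8 to 39.4 CPM at dpi 2, 27.6 to 38.4 CPM at dpi 10 and 25.8 to 29.2 CPM at dpi 42, with differences of -0.06 ± 0.25, -0.02 ± 0.25 and -0.31 ± 0.25 on the log2 scale that did not pass the test (q = 0.882, 0.976 and 0.408). The change of the OL-to-total ratio itself, tested within tissues, was -0.59 ± 0.23 at dpi 2, -0.77 ± 0.23 at dpi 10 and -0.74 ± 0.24 at dpi 42 on the log2 scale and missed the threshold each time (q = 0.13, 0.0666 and 0.0796). In DESeq2 it passed at dpi 10 (q = 0.0251) and dpi 42 (q = 0.0365). The dpi 10 value also passed by library sizes alone (q = 0.032) and with only the times compared in the fit (q = 0.00514). With an offset for exon length and GC content it missed the threshold (q = 0.0784).

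Within time points, Erbb3 was lowest in the OL library highest in astrocyte markers in naive cords (150 CPM), at dpi 2 (87.3 CPM) and at dpi 42 (67.9 CPM), and was between the others at dpi 10 (115 CPM). Without the 5 OL libraries high in astrocyte markers the decline of Erbb3 in OLs remained past the threshold, at 0.64 ± 0.19 (dpi 2, q = 0.00835), 0.97 ± 0.19 (dpi 10, q = 0.00067) and 0.74 ± 0.24 (dpi 42, 1 OL library left, q = 0.0263) on the log2 scale. The dpi 2 call was lost with DESeq2 size factors (q = 0.063), library sizes alone (q = 0.119), the offset for exon length and GC content (q = 0.105) and only the 2 groups compared in the fit (q = 0.143). It was lost without naive OL 1, naive OL 2 or dpi 2 OL 3 (q up to 0.154) and without both libraries of dpi 2 tissue 2 (q = 0.0658), and the dpi 10 call without naive OL 1, naive OL 2, dpi 10 OL 2 or dpi 10 OL 3 (q up to 0.118).

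**Figure D1:**
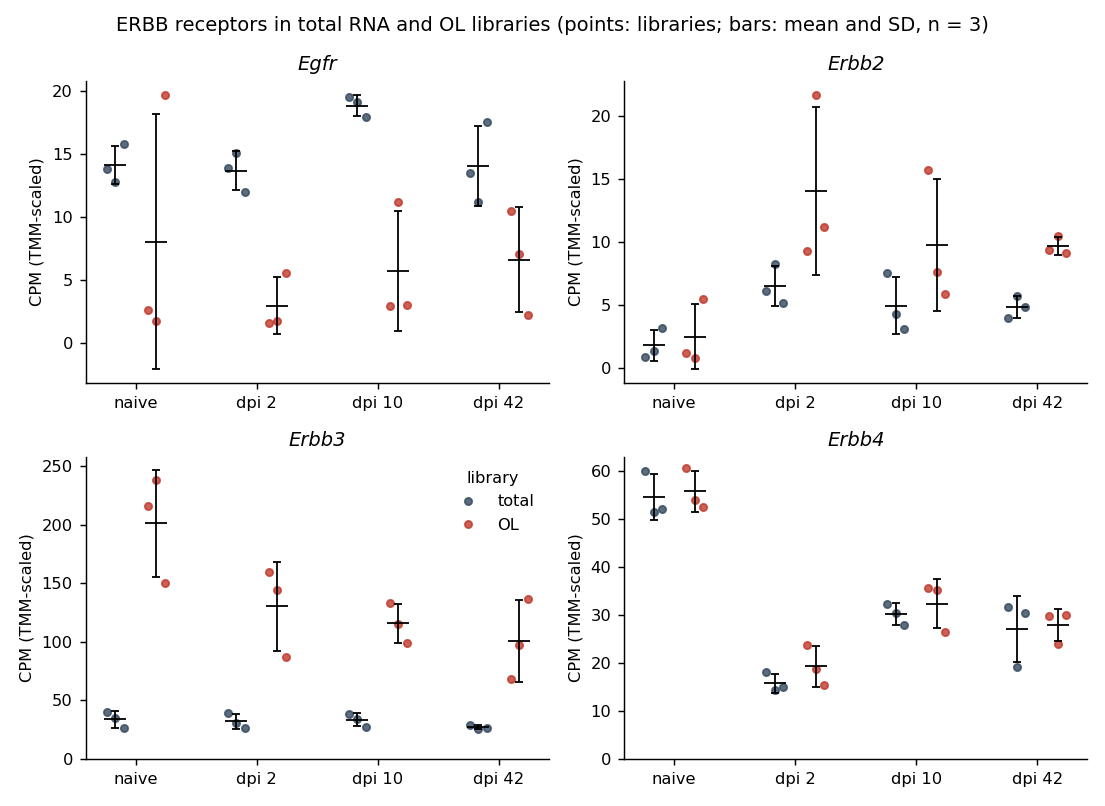
TMM-scaled CPM of the 4 receptors by time in total RNA (dark) and OL (red) libraries. Points are libraries, and black marks are the mean and SD of 3. Erbb3 is above total RNA in all OL libraries, Erbb4 overlaps between the kinds and is lowest at dpi 2, and 1 naive OL library holds 19.7 CPM of Egfr against 1.73 and 2.61 CPM in the other two.

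Erbb4 fell in both OL libraries and total RNA at each time, and among the receptors that passed the test it fell most at dpi 2. In naive cords it stood at 60.6, 54.0 and 52.5 CPM in OL libraries and at 60, 51.5 and 52.1 CPM in total RNA. At dpi 2 it stood at 23.8, 18.7 and 15.4 CPM in OL libraries and at 18, 14.4 and 14.9 CPM in total RNA. The naive and dpi 2 values did not overlap in either kind of library. Erbb4 fell by 1.53 ± 0.18 on the log2 scale in OLs (2.88-fold, q = 1.22e-06) and by 1.79 ± 0.18 in total RNA (3.46-fold, q = 2.1e-07). The change of its OL-to-total ratio, tested within tissues, did not pass. It was 0.25 ± 0.17 at dpi 2 (q = 0.434), 0.06 ± 0.17 at dpi 10 (q = 0.978) and 0.04 ± 0.17 at dpi 42.

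Later the loss of Erbb4 was smaller. OL libraries held 35.5, 35.2 and 26.4 CPM at dpi 10 and 29.7, 24 and 30 CPM at dpi 42, all below naive. The decrease was 0.78 ± 0.18 at dpi 10 (q = 0.00399) and 1.00 ± 0.18 at dpi 42 (q = 0.000227) on the log2 scale in OLs, and 0.85 ± 0.18 (q = 0.000887) and 1.01 ± 0.18 (q = 0.000342) in total RNA. Set against dpi 2, dpi 42 was higher in total RNA (19.2, 31.7 and 30.3 CPM, log2 0.78 ± 0.18, q = 0.00715) and in OLs (log2 0.53 ± 0.18, q = 0.0481). The OL call of that last comparison was lost without dpi 2 OL 2, dpi 2 OL 3, dpi 42 OL 1 or dpi 42 OL 3 (q up to 0.164), and without both libraries of dpi 2 tissue 2 the total RNA call stood at q = 0.0503 and the OL call at q = 0.122. With an offset for exon length and GC content the OL decrease of Erbb4 was 0.98 at dpi 2 (q = 7.35e-05) and missed the threshold at dpi 10 (-0.39, q = 0.108) and dpi 42 (-0.32, q = 0.153). In total RNA the decrease with this offset was 1.28 at dpi 2, 0.46 at dpi 10 (q = 0.0302) and 0.51 at dpi 42 (q = 0.0262), all past the threshold. Neuron markers, which summed to 8180 to 8640 CPM in naive total RNA, stood at 3580 to 4570 CPM at dpi 2, and their part in the total RNA values of Erbb4 was not tested. Erbb4 did not differ between OLs and total RNA past the threshold (log2 0.03 to 0.29 over the 4 times, q of 0.178 or more). This depends on the processing, since with the offset for length and GC content the dpi 2 value was 0.43 (q = 0.0304), and by library sizes alone the naive value was -0.48 (q = 0.0213) while the median of all genes moved from -0.27 to -0.78.

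Erbb2, the shared partner receptor, was scarce in naive cords and higher after SCI. Naive OL libraries held 1.18, 0.761 and 5.47 CPM and naive total RNA 0.852, 1.35 and 3.14 CPM, with naive tissue 3 the highest of both kinds. In OL libraries Erbb2 reached 9.30, 21.7 and 11.2 CPM at dpi 2, 15.7, 7.65 and 5.90 CPM at dpi 10, and 9.37, 10.5 and 9.16 CPM at dpi 42. Every OL library after injury was above every naive one. Erbb2 rose 5.67-fold in OLs at dpi 2 (log2 2.50 ± 0.60, q = 0.00227), 3.92-fold at dpi 10 (log2 1.97 ± 0.60, q = 0.0246) and 3.89-fold at dpi 42 (log2 1.96 ± 0.60, q = 0.0146).

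Total RNA moved the same way. It held 6.07, 8.26 and 5.14 CPM of Erbb2 at dpi 2 (log2 1.86 ± 0.60, q = 0.0173), 7.50, 4.27 and 3.07 CPM at dpi 10 (log2 1.47 ± 0.59, q = 0.0633) and 5.70, 3.99 and 4.84 CPM at dpi 42 (log2 1.44 ± 0.59, q = 0.089). Only dpi 2 passed the test, and that call was lost without naive total 1, naive total 2 or dpi 2 total 2 (q up to 0.0861). The values in total RNA did not overlap naive at dpi 2 and dpi 42 and overlapped at dpi 10. Naive tissue 3 set the size of these changes. Without both of its libraries the log2 increase in OLs was 3.86 at dpi 2, 3.32 at dpi 10 and 3.31 at dpi 42. That in total RNA was then 2.55 at dpi 2, 2.16 at dpi 10 and 2.13 at dpi 42. This tissue, left out after seeing the data, is the naive one highest in Erbb2. Its removal enlarges the increases by construction, so no test is read from these values. In total RNA, with all libraries, dpi 10 and dpi 42 passed in DESeq2 (q = 0.0306 and 0.0488). They also passed with only the 2 groups compared in the fit (q = 0.00551 and 0.0121). Without naive OL 1 or naive OL 2 the OL increase missed the threshold at dpi 10 and dpi 42, as it did at dpi 10 without dpi 10 OL 1 (q up to 0.129 and 0.0823). With only the 2 groups compared in the fit, the OL increase at each time had a q of 0.0508, 0.133 and 0.0917. The change of the Erbb2 OL-to-total ratio against naive cords, tested within tissues, missed the threshold at each time. It was 0.855 at dpi 2 (log2, q = 0.275), 0.76 at dpi 10 (q = 0.42) and 0.82 at dpi 42 (q = 0.348). The OL-to-total difference of Erbb2 at dpi 2 (log2 1.12), dpi 10 (0.98) and dpi 42 (1.00) missed the threshold in the fit of group means (q = 0.105, 0.157 and 0.149) and passed it when the libraries of a tissue were paired (1.05 with q = 0.0122, 0.95 with q = 0.0202 and 1.01 with q = 0.0148).

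Erbb2 was read beside 10 Schwann cell markers. Their sums were above naive in both kinds of library at dpi 10 and dpi 42, and overlapped naive at dpi 2. Of the 10, 3, 5 and 2 passed as higher in OLs at dpi 2, 10 and 42, and 4, 3 and 4 in total RNA. The 10 markers, of which 0 to 4 were at 0 in a library, summed to 712, 724 and 1330 CPM in naive OL libraries and to 1070 to 1650 CPM at dpi 2, 1920 to 2800 CPM at dpi 10 and 2080 to 2380 CPM at dpi 42. In total RNA they summed to 180 to 393, 356 to 724, 485 to 752 and 572 to 1140 CPM at the 4 times. Mean Erbb2 was 14.1, 9.75 and 9.66 CPM in OLs and 6.49, 4.95 and 4.84 CPM in total RNA at the 3 times after SCI. Set against dpi 2, Erbb2 at dpi 42 did not pass the test in OLs (log2 -0.54 ± 0.57, q = 0.585) or total RNA (-0.42 ± 0.57, q = 0.72). Leaving out 1 library moved the OL value between -0.75 and -0.09. Naive tissue 3, dpi 2 tissue 2 and dpi 10 tissue 1, highest in Erbb2 for their time in both kinds of library, were also highest in the Schwann cell sum in both. At dpi 42 this order did not hold, since the total RNA library with 1140 CPM of Schwann cell markers had the lowest Erbb2 of its group, 3.99 CPM. By correlation of log2 CPM over the 24 libraries, which differ in group and kind, the genes most like Erbb2 were Col28a1 (r = 0.95), Dhh (0.92), the Schwann cell morphogen, and Egfl8 (0.89), which is on the Schwann cell list. The part of Schwann cells in the Erbb2 values was not tested.

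Egfr was mainly a gene of the total RNA. Total RNA libraries held 12.8 to 15.8 CPM in naive cords, 12.0 to 15.1 CPM at dpi 2, 17.9 to 19.5 CPM at dpi 10 and 11.2 to 17.5 CPM at dpi 42, and no change after SCI passed the test, although dpi 10 did with only the 2 groups compared in the fit (log2 0.56, q = 0.00123). OL libraries held 2.61, 1.73 and 19.7 CPM in naive cords, 1.55, 1.74 and 5.55 CPM at dpi 2, 2.95, 11.2 and 2.97 CPM at dpi 10, and 10.5, 7.06 and 2.19 CPM at dpi 42. The 5 highest of these 12 values came from the 5 OL libraries high in astrocyte markers. Egfr was lower in OLs than in total RNA at dpi 2 (log2 -2.21 ± 0.73, q = 0.0144) and dpi 10 (-1.72 ± 0.71, q = 0.0458) but not in naive cords (-0.81 ± 0.69, q = 0.336) or at dpi 42 (-1.09 ± 0.70, q = 0.194). Without the 5 libraries it was lower in OLs by 2.54 in naive cords, 3.10 at dpi 2, 2.63 at dpi 10 and 2.63 at dpi 42 on the log2 scale. These libraries, left out after seeing the data, are the OL libraries highest in Egfr. Their removal lowers Egfr in OLs by construction, so no test is read from these values. The dpi 2 call was lost without dpi 2 OL 1 or OL 2 (q up to 0.0571) and without both libraries of dpi 2 tissue 2 (-1.86, q = 0.102), and the dpi 10 call without any 1 of its 6 libraries other than dpi 10 OL 2 (q up to 0.165) and with the offset for exon length and GC content (-1.65, q = 0.0613). After SCI Egfr in OLs did not pass the test (log2 -1.45 at dpi 2, -0.49 at dpi 10 and -0.29 at dpi 42, q = 0.123, 0.713 and 0.837). Its direction was not settled at any time. Leaving out 1 library gave -2.35 to 0.37 at dpi 2, -1.44 to 1.39 at dpi 10 and -0.85 to 1.53 at dpi 42. The dpi 2 value passed without naive OL 1, naive OL 2 or dpi 2 OL 3 (-2.35 to -1.93, q of 0.0467 or less) but was -0.46 (q = 0.214) without the 5 libraries. The genes most like Egfr over the 24 libraries were Smpdl3a (r = 0.97), Notch3 (0.95) and Jam2 (0.95).

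**Figure D2:**
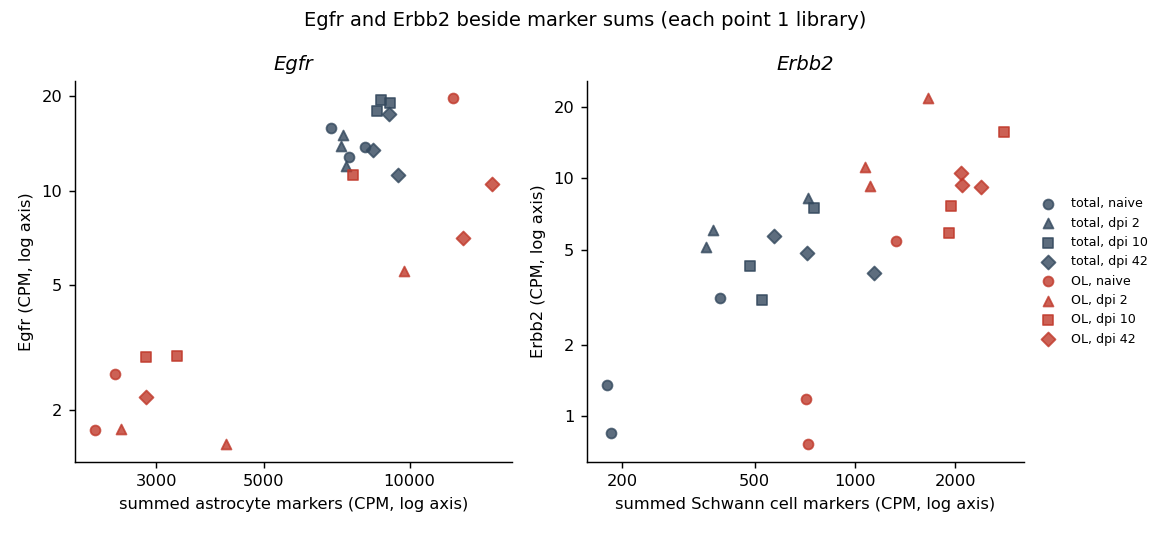
Egfr against the summed astrocyte markers and Erbb2 against the summed Schwann cell markers, in CPM on log axes. Each point is 1 library, with colour for the kind and shape for the time. The 5 OL libraries with astrocyte sums of 7650 to 14800 CPM are the 5 highest of the OL libraries in Egfr, and the 2 OL libraries lowest in Schwann cell markers, both naive, are the lowest OL libraries in Erbb2.

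By these changes the make-up of the receptors per exon length shifted most in total RNA. Erbb4 went from 38.0% ± 1.76 of the receptor sum in naive total RNA to 14.1% ± 1.49 at dpi 2, and stood at 23.2% ± 1.76 at dpi 10 and 24.4% ± 4.14 at dpi 42. Erbb2 went from 3.08% ± 2.33 in naive total RNA to 13.7% ± 3.09 at dpi 2, and from 1.39% ± 1.64 to 10.5% ± 4.21 in OL libraries. Erbb3 kept 76.9% to 84.8% of the sum in OL libraries on average. The sum itself was 39.2 ± 6.39 CPM per kb in naive OL libraries, 26.2 ± 6.72 at dpi 2, 24.2 ± 4.09 at dpi 10 and 21.5 ± 5.44 at dpi 42 (SD, n = 3). These shares are a description, and the other receptor profiles were read the same way: Erbb3 was most like Qk (r = 0.99), Map4k5 and Cdk19 (both 0.99), and Erbb4 most like Pdzd8, Zmym2 (both 0.93) and Wdfy3 (0.92).

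**Figure D3:**
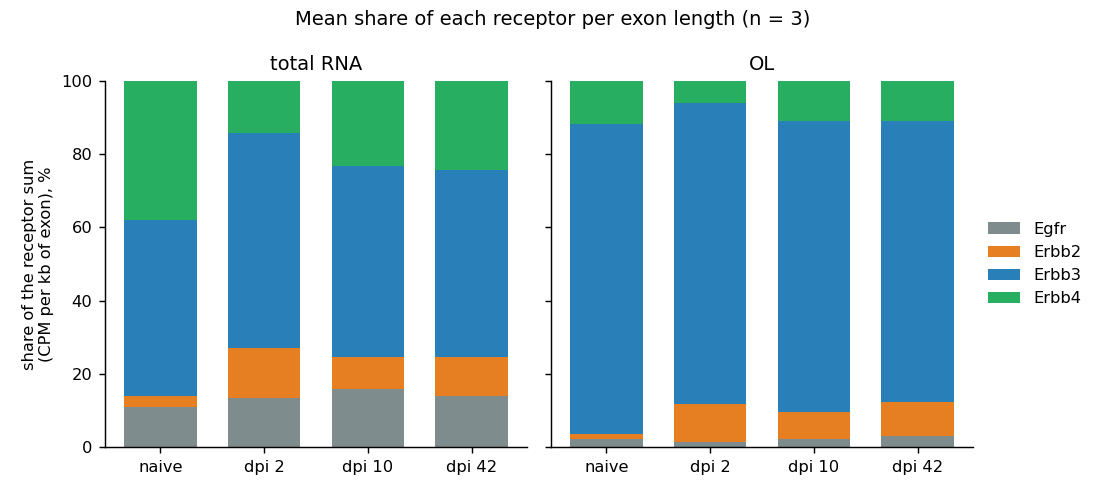
Mean share of each receptor in the sum of the 4, per kb of exon, by time in total RNA and OL libraries (n = 3 per bar). Erbb3 fills 76.9% to 84.8% of the bars for OLs, and the Erbb4 part of the total RNA bars shrinks from 38.0% in naive cords to 14.1% at dpi 2.

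The neuregulins were higher in total RNA than in OL libraries at each time for Nrg1 and Nrg3, and in naive cords and at dpi 2 for Nrg2. Nrg1 (chr8:31814551-32884029, - strand) stood at 65.6, 61.4 and 64.0 CPM in naive total RNA and at 1.97, 2.75 and 2.03 CPM in naive OL libraries. Its level in OLs was 28.3-fold lower in naive cords (log2 -4.82 ± 0.43, q = 3.29e-09), 17.4-fold lower at dpi 2, 14.1-fold lower at dpi 10 and 19.7-fold lower at dpi 42, with q of 9.79e-08 or less. Nrg3 (chr14:38368952-39473088, - strand) stood at 25.5, 20.4 and 26.9 CPM in naive total RNA and at 1.72, 0.296 and 0.688 CPM in OL libraries, a 26.8-fold difference (log2 -4.75 ± 0.78, q = 2.21e-05). It was 13.3-fold lower in OLs at dpi 2, 20.4-fold lower at dpi 10 and 29.8-fold lower at dpi 42. These Nrg3 values rest on few counts, 0 to 47 in an OL library. Leaving out 1 OL library moved the log2 value in naive cords to -5.44 (without OL 1), at dpi 2 to -4.78 (without OL 3), at dpi 10 to -5.74 (without OL 3), and at dpi 42 to -4.28 (without OL 1) or -5.61 (without OL 3), all still past the threshold. At dpi 42, without the 2 libraries of conflicting labels, Nrg1 was at -3.60 and Nrg3 at -4.24.

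Nrg1 was lower in total RNA after SCI. It stood at 21.2, 24.2 and 24.1 CPM at dpi 2, 29.5, 21 and 21.7 CPM at dpi 10, and 27.9, 47.7 and 27.4 CPM at dpi 42, all below the naive values. The decrease was 2.75-fold at dpi 2 (log2 -1.46 ± 0.36, q = 0.00293) and 2.64-fold at dpi 10 (-1.40 ± 0.36, q = 0.0047), and missed the threshold at dpi 42 (-0.89 ± 0.36, q = 0.0806). Without dpi 42 total 2, the library at 47.7 CPM, Nrg1 also passed at dpi 42 (-1.20, q = 0.0387). Neuron markers in total RNA stood at 8180 to 8640 CPM in naive cords, 3580 to 4570 CPM at dpi 2, 3640 to 4130 CPM at dpi 10 and 4440 to 6650 CPM at dpi 42, and dpi 42 total 2 was the highest of the dpi 42 libraries in them too. The part of neurons in the Nrg1 values was not tested. Nrg3 in total RNA was below every naive library at each time, at 11.5 to 12.4, 9.83 to 13.6 and 12.6 to 15.4 CPM, and did not pass the test (q of 0.247 or more). It passed at each time with only the 2 groups compared in the fit (log2 -0.89 at dpi 2, -0.89 at dpi 10 and -0.64 at dpi 42, q of 0.00412 or less).

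Nrg2 (chr18:36017652-36197380, - strand) was the least depleted neuregulin of OLs. Naive OL libraries held 1.47, 1.10 and 4.17 CPM against 6.26, 7.64 and 7.70 CPM in total RNA, and the libraries did not overlap. It was lower in OLs in naive cords (log2 -1.68 ± 0.48, q = 0.00549) and at dpi 2 (-1.44 ± 0.49, q = 0.0174), and missed the threshold at dpi 10 (-0.94 ± 0.48, q = 0.101) and dpi 42 (-0.71 ± 0.47, q = 0.208). The dpi 10 difference passed with only the 2 groups compared in the fit (-0.88, q = 0.0239), in DESeq2 (q = 0.0499) and by library sizes alone (q = 0.0127), the last of which also passed at dpi 42 (q = 0.0424). The naive call was lost without naive OL 1 or OL 2 and the value was -2.32 without naive OL 3, and the dpi 2 call was lost without dpi 2 OL 2 or dpi 2 total 3 (q up to 0.0601 and 0.0679) or both libraries of dpi 2 tissue 2 (q = 0.107), and with only the 2 groups compared in the fit (q = 0.108). Without the 5 OL libraries high in astrocyte markers Nrg2 was also lower in OLs at dpi 10 (-0.93, q = 0.0465) and, with 1 OL library left, at dpi 42 (-1.76, q = 0.00914). In total RNA Nrg2 was below naive without overlap at dpi 2 (mean 3.21 against 7.20 CPM) and missed the threshold (log2 -1.17 ± 0.47, q = 0.0589). It passed there in DESeq2 (q = 0.0383) and with only the 2 groups compared in the fit (q = 0.00454). Later changes in total RNA did not pass (-0.54 at dpi 10, q = 0.415, and -0.29 at dpi 42, q = 0.722). OL libraries held 1.36, 0.446 and 1.72 CPM at dpi 2, 2.56, 2.66 and 2.47 CPM at dpi 10, and 5.07, 3.99 and 1.68 CPM at dpi 42. From dpi 2 to dpi 42 Nrg2 was higher in OLs by 1.60 ± 0.49 on the log2 scale (q = 0.0284). The 2 higher dpi 42 libraries are those high in astrocyte markers. Without the 5 such libraries the difference was 0.93 ± 0.54 (q = 0.254), and the call was also lost without dpi 2 OL 2, dpi 42 OL 1 or dpi 42 OL 2 alone (q up to 0.11).

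**Figure D4:**
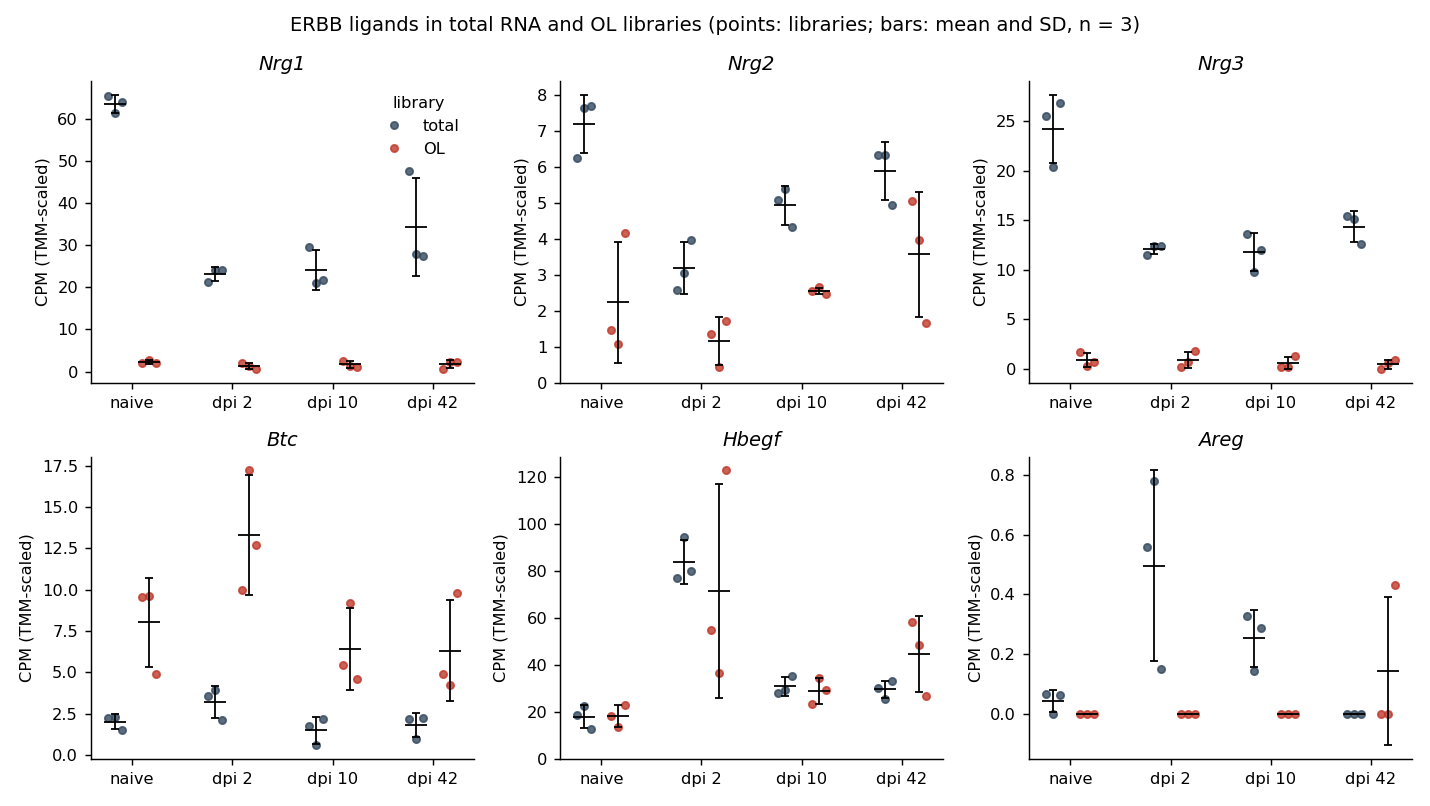
TMM-scaled CPM of the 6 ligands by time in total RNA (dark) and OL (red) libraries. Points are libraries, and black marks are the mean and SD of 3. Nrg1 and Nrg3 sit near 0 in OL libraries and lower after SCI in total RNA, Btc is higher in OL libraries, and Hbegf is highest at dpi 2 in total RNA, while its OL values at dpi 2 and dpi 42 overlap.

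Of the EGF-type ligands, Btc (betacellulin, chr5:91357261-91402994, - strand) was OL-enriched, Hbegf was induced, and Areg was near the floor. Btc stood at 9.54, 9.60 and 4.93 CPM in naive OL libraries and at 2.26, 2.29 and 1.52 CPM in total RNA. OL libraries were above total RNA without overlap at each of the 4 times. The enrichment was 3.96-fold in naive cords (log2 1.98 ± 0.47, q = 0.00115), 4.12-fold at dpi 2 (q = 0.000935), 4.24-fold at dpi 10 (q = 0.000884) and 3.50-fold at dpi 42 (q = 0.00271). At dpi 2 Btc stood at 10.0, 17.2 and 12.7 CPM in OLs, above all naive OL libraries, but the difference of 0.73 ± 0.45 on the log2 scale missed the threshold (q = 0.221), as did those at later times and in total RNA. Without the 5 OL libraries high in astrocyte markers the dpi 42 enrichment was 2.49 on the log2 scale.

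Hbegf (heparin-binding EGF-like growth factor, chr18:36504927-36515805, - strand), an early-response ligand of EGFR and ERBB4, rose at dpi 2. Total RNA went from 18.7, 22.5 and 12.9 CPM in naive cords to 76.8, 94.4 and 79.8 CPM at dpi 2, and OL libraries from 18.2, 13.4 and 22.8 CPM to 55.0, 36.5 and 123 CPM. Naive and dpi 2 values did not overlap in either kind. The increase was 4.64-fold in total RNA (log2 2.22 ± 0.35, q = 3e-05) and 3.95-fold in OLs (1.98 ± 0.34, q = 9.37e-05). The OL value at dpi 2 was 1.28 without dpi 2 OL 3 (q = 0.00102), the library at 123 CPM, and 1.47 without the 5 OL libraries high in astrocyte markers (q = 4.83e-05). The change of the Hbegf OL-to-total ratio, tested within tissues, did not pass. It was -0.42 ± 0.51 at dpi 2 (q = 0.728) and 0.52 ± 0.51 at dpi 42 (q = 0.669) on the log2 scale.

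By dpi 42 Hbegf in total RNA stood at 25.6, 30.1 and 33 CPM, 2.83-fold lower than at dpi 2 (log2 -1.50 ± 0.34, q = 0.00565), and 0.71 ± 0.33 above naive on the log2 scale without passing the test (q = 0.14). In OL libraries it stood at 58.3, 48.6 and 26.9 CPM, higher than naive by 1.30 ± 0.34 (q = 0.00522). The 2 higher values are again those of the libraries high in astrocyte markers, and without the 5 such libraries the dpi 42 difference, with 1 OL library left, was 0.75 ± 0.29 (q = 0.0634). At dpi 10 Hbegf stood at 23.3 to 34.4 CPM in OLs and 27.9 to 35.4 CPM in total RNA, above naive without overlap, at q = 0.185 and 0.0847. The OL increase at dpi 10 passed without the 5 libraries (0.73, q = 0.0318), and that in total RNA passed in DESeq2 (q = 0.0427) and with only the 2 groups compared in the fit (q = 0.000271), as it did at dpi 42 in the latter (q = 0.00405). Between OLs and total RNA Hbegf differed by -0.22 to 0.59 on the log2 scale over the 4 times, without passing the test (q of 0.137 or more). At dpi 42 it passed without dpi 42 OL 3 (0.84, q = 0.0447). Without the 5 libraries it was lower in OLs at dpi 2, at -0.92 ± 0.22 (q = 0.00102).

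Areg (amphiregulin, chr5:91139599-91148432, + strand, 209 kb from Btc) was at 0 counts in 11 of the 12 OL libraries, which allows up to 0.127 CPM in a library, and at 11 counts in dpi 42 OL 3. Total RNA held 20, 26 and 5 counts at dpi 2, 11, 5 and 10 at dpi 10, 2, 0 and 2 in naive cords, and 0 in all dpi 42 libraries. Against the floor of 3 counts per library, Areg was at least 4.26-fold lower in OLs than in total RNA at dpi 2 and at least 2.20-fold lower at dpi 10 (q = 0.0245 and 0.0431). Both calls were lost in DESeq2 (q = 0.0652 and 0.125), in the paired fit (q = 0.161 and 0.202) and without any 1 of the OL libraries of that time, and at dpi 10 also without any 1 of the total RNA libraries.

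Without both libraries of dpi 2 tissue 2, Erbb2 rose in OLs at dpi 2 by 2.05 (log2, q = 0.0171) and in total RNA stood at 1.65 (q = 0.056). Erbb4 still passed as lower in OLs (q = 2.69e-05) and total RNA (-1.73, q = 8.16e-06), Nrg1 as lower in total RNA (-1.49, q = 0.0122), and Hbegf as higher in OLs (2.30, q = 2.08e-05) and total RNA (2.12, q = 5.52e-05). The dpi 2 enrichments of Erbb3 (1.90), Btc (1.99), Nrg1 (-4.13) and Nrg3 (-3.56) also passed (q of 0.00901 or less), while that of Areg did not (q = 0.0968). From dpi 2 to dpi 42 Nrg2 in OLs no longer passed (1.22, q = 0.121) and Hbegf in total RNA did (-1.41, q = 0.0121).

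Without the 2 dpi 42 libraries of conflicting labels, the OL changes at dpi 42 still passed for Erbb2 (1.98, q = 0.0359), Erbb3 (-0.78, q = 0.0329), Erbb4 (-1.05, q = 0.000973) and Hbegf (1.06, q = 0.0438). So did Erbb4 in total RNA (-1.14, q = 0.000508) and the enrichments of Erbb3 (2.16, q = 5.13e-06) and Btc (2.12, q = 0.00623). From dpi 2 to dpi 42, Erbb4 (0.48, q = 0.115) and Nrg2 (1.27, q = 0.127) in OLs no longer passed, while Erbb4 (0.65, q = 0.0484) and Hbegf (-1.51, q = 0.0217) in total RNA did. Without the 5 OL libraries high in astrocyte markers, Erbb2 (3.22 to 3.92, q of 0.0019 or less) and Erbb4 (-1.49 to -0.89, q of 0.0107 or less) passed in OLs at each time after SCI. The enrichments of Erbb3 (1.84 to 2.91), Btc (1.77 to 2.49), Nrg1 (-4.59 to -3.65) and Nrg3 (-4.78 to -3.93) passed at each of the 4 times. Areg enrichment at dpi 10 then stood at q = 0.0554, and Erbb4 from dpi 2 to dpi 42 in OLs at 0.54 (q = 0.14).

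Ranked per kb of exon, the members of naive OL libraries ran from Erbb3 (33.5 ± 7.61 CPM per kb) over Erbb4 (4.51 ± 0.35), Hbegf (3.75 ± 0.98) and Btc (1.78 ± 0.59) to Nrg2 (0.72 ± 0.53), Egfr (0.71 ± 0.90), Erbb2 (0.47 ± 0.50), Nrg1 (0.22 ± 0.04), Nrg3 (0.13 ± 0.11) and Areg at 0. Erbb4 and Hbegf lay within 1 SD of each other, as did Nrg2, Egfr and Erbb2. In naive total RNA the order was led by Nrg1 (6.15 ± 0.20), Erbb3 (5.62 ± 1.18), Erbb4 (4.41 ± 0.38), Hbegf (3.73 ± 1.00) and Nrg3 (3.56 ± 0.50), of which neighbours overlapped. At dpi 2 Hbegf led total RNA at 17.3 ± 1.95 CPM per kb and was second to Erbb3 in OL libraries (14.8 ± 9.47 against 21.6 ± 6.31).

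**Figure D5:**
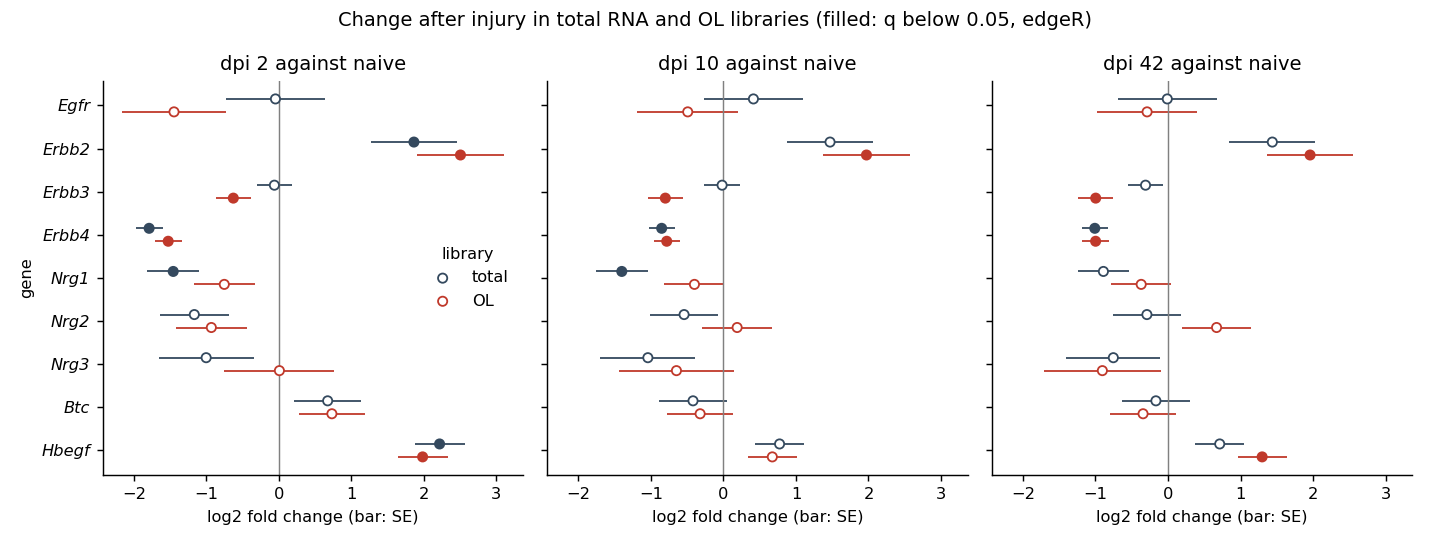
Log2 fold change against naive at dpi 2, dpi 10 and dpi 42 for 9 members (Areg is left out, at the floor) in total RNA (dark) and OL (red) libraries. Bars are standard errors, and filled points passed q = 0.05. Erbb2 and Hbegf lie right of 0 and Erbb4 left of it in both kinds at each time, and Erbb3 is displaced from 0 in OLs.

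Counts of members are read against all 17167 genes tested. As higher in OLs than in total RNA, Erbb3 and Btc were called at each time (2 of 10), where 24.9%, 24.8%, 25.2% and 24.9% of all genes were called in naive cords, at dpi 2, dpi 10 and dpi 42. As lower, 3, 5, 4 and 2 members were called, against 30.5%, 28.8%, 28.8% and 28.9% of all genes. After SCI in OLs, 2, 1 and 2 members were called higher at dpi 2, 10 and 42 against 18.4%, 9.62% and 16.2% of all genes, and 2 each time lower against 20%, 8.59% and 16.9%. In total RNA, 2, 0 and 0 were called higher against 16.4%, 13.9% and 10.4%, and 2, 2 and 1 lower against 20.8%, 18.2% and 12.1%. From dpi 2 to dpi 42, 2 members were called higher and 0 lower in OLs (8.91% and 8.66% of all genes), and 1 higher and 1 lower in total RNA (5.17% and 5.59%). For the change of the OL-to-total ratio, edgeR called 0 members at each time, against 13.3%, 7.63% and 7.85% of all genes, with 1 member (Erbb3) at an unadjusted p under 0.05 each time, while DESeq2 called 0, 1 and 1 (Erbb3). With 10 members these counts are close to the background and are no result about the family as a whole. The median log2 change of the members in OLs was -0.31 at dpi 2, -0.36 at dpi 10 and -0.32 at dpi 42, against 0 over all genes.

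The rest of the pathway was read from lists of 57 genes, of which 56 passed the filter. In naive cords 23 of the 56 were higher and 18 lower in OLs than in total RNA, against 24.9% and 30.5% of all genes. The 3 with the smallest p were Pik3r1, a regulatory subunit of PI3 kinase (592 ± 29.3 against 151 ± 6.58 CPM, log2 1.97 ± 0.10, q = 1.66e-12), Gab1, a docking protein of receptor tyrosine kinases (766 ± 103 against 114 ± 6.87 CPM, 2.75 ± 0.16, q = 8.49e-12), and Mapk3, which encodes ERK1 (652 ± 90.1 against 193 ± 4.05 CPM, 1.75 ± 0.12, q = 5.34e-11). Of the 6 sheddases, proteases that release ligands or their regulators, 4 were higher in naive OLs. Of the 4 other ligands tested, Tgfa, an EGFR ligand, was OL-enriched at each time and at dpi 2 and dpi 10 was among the 3 of smallest p (517 ± 130 against 121 ± 5.98 CPM at dpi 2, log2 2.10 ± 0.16, q = 8.85e-10).

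After SCI, 15 pathway genes rose and 20 fell in OLs at dpi 2, 7 rose and 13 fell at dpi 10, and 8 rose and 24 fell at dpi 42. Of all genes, 18.4%, 9.62% and 16.2% rose and 20%, 8.59% and 16.9% fell. The 3 of smallest p at dpi 2 were Fos, an immediate early gene downstream of ERK (3.64 ± 1.54 CPM in naive OLs to 98.7 ± 5.74 CPM, log2 4.76 ± 0.27, q = 5.5e-11), Hras (0.93 ± 0.10, q = 2.31e-07) and the sheddase Adam9 (0.85 ± 0.09, q = 3.01e-07). Fos led at dpi 10 (38.6 ± 10.7 CPM, log2 3.41 ± 0.25, q = 8.68e-09), with Egr1 (2.10 ± 0.32, q = 7.24e-05) and Etv5 (-1.63 ± 0.28, q = 0.000326). It led also at dpi 42 (29.4 ± 7.04 CPM, 3.02 ± 0.25, q = 4.09e-08), with the sheddase Adam10 (314 ± 39.2 to 138 ± 38.2 CPM, -1.19 ± 0.14, q = 2.49e-06) and the exchange factor Sos2 (-1.31 ± 0.17, q = 8.76e-06). Of the 12 inhibitors of the receptors, 5 fell and 2 rose in OLs at dpi 2, 3 fell at dpi 10 and 5 fell at dpi 42, set against the same shares of all genes. In total RNA 18, 11 and 9 pathway genes rose and 17, 15 and 11 fell at the 3 times. The shares of all genes were 16.4%, 13.9% and 10.4% higher and 20.8%, 18.2% and 12.1% lower. Of the 6 sheddases, 5 rose and 1 fell in total RNA at dpi 2, 4 rose at dpi 10 and 3 rose at dpi 42. In OLs 3 rose and 3 fell at dpi 2, 2 rose and 2 fell at dpi 10, and 2 rose and 4 fell at dpi 42. In total RNA Adam17 stood at 24.2 ± 2.42 CPM in naive cords and 61.0 ± 6.32 CPM at dpi 10 (log2 1.33 ± 0.14, q = 3.15e-07). The OL-to-total ratio of Adam17 fell at each time, by 1.63 ± 0.13, 1.75 ± 0.13 and 1.87 ± 0.13 on the log2 scale (q = 2.11e-05, 1.31e-05 and 1.44e-05).

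Markers of other cells moved with injury beside all of these values. In total RNA, microglia and macrophage markers summed to 212 to 254 CPM in naive cords and 1330 to 4790 CPM after SCI, and 9 or 10 of the 10 rose at each time. In OL libraries they summed to 18.7 to 25.8 CPM in naive cords and 78.5 to 272 CPM after SCI, and 9 of 10 rose at each time, with 1 lower at dpi 2. Fibroblast markers went from 48.7 to 92.8 CPM in naive OL libraries to 206 to 611 CPM after SCI, and from 67.0 to 92.1 CPM to 423 to 2390 CPM in total RNA. Neutrophil markers stayed at or below 17.8 CPM in OL libraries and reached 101 CPM in total RNA, endothelial and pericyte markers stayed at or below 36.9 CPM in OL libraries against 162 to 394 CPM in total RNA, and OPC markers at or below 161 CPM against 363 to 602 CPM. Their part in the values of the ERBB genes was not tested.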

How the data were processed

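RNA from 12 tissues was measured as 1 OL and 1 total RNA library each. The authors deposited raw counts per gene, made with FastQC 0.10.1, STAR on mm10 (GRCm38.p6) and HTSeq 0.10.0. The strand setting and annotation release are not given in the sources used here.

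Genes summing to at least 10 counts were kept (17167 of 21965). Counts were scaled by TMM and tested with edgeR 4.0.16 in R 4.3.3 (quasi-likelihood F-test, Benjamini-Hochberg q under 0.05 over all genes tested) in 15 comparisons. Enrichment in OLs, change against naive cords and dpi 42 against dpi 2 came from 1 fit of 8 group means. The change of the OL-to-total ratio came from a fit with tissue as a block, because both libraries of a tissue come from the same mice. Deviations of libraries of 1 tissue correlated at 0.0408 to 0.1372 in naive cords, 0.0879 to 0.1078 at dpi 2, 0.0245 to 0.063 at dpi 10 and -0.0109 to 0.02 at dpi 42. Alternatives covered scaling, filter, DESeq2 1.42.0, the samples in the fit, a length and GC offset, blocks and left-out libraries. The scripts were tested on simulated data.

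Library sizes alone moved the median OL enrichment of all genes from between -0.2714 and -0.1848 to between -0.7961 and -0.6853 (log2). Standard errors come from the fit and include the spread between libraries, and floors of 3 counts cover counting error only. Named genes were the members, the 3 pathway genes of smallest p in a comparison, and the 3 genes most correlated with each receptor in log2 CPM (prior count 2). Members and lists were chosen with earlier results of these data known. Promoters came from RefSeq (GRCm38.p6), where 6 of 10 members matched. Replicates are separate pools of 2 mice.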

Additional observations from a re-analysis of the deposited data

Results flagged for a closer look

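4 differences between dpi 2 and dpi 42 in the change against naive cords passed the test of the difference itself, by edgeR's quasi-likelihood test over all genes. Erbb4 was 0.5289 higher at dpi 42 in OLs (log2, q = 0.0481) and 0.7807 higher in total RNA (q = 0.00715), with every dpi 42 library above every dpi 2 library in both kinds. Nrg2 was 1.6021 higher in OLs (q = 0.0284), where the groups overlapped. Hbegf in total RNA was -1.5020 at dpi 42 against dpi 2 (q = 0.00565), with every dpi 42 library below every dpi 2 library.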

How the results depend on the processing

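Over the single members, 2247 of 2386 values under the alternatives kept their side of the threshold, 63 passed it newly and 73 no longer passed. The sign changed in 123, of which 120 passed in neither fit and none had passed before. The other 3 passed with the new sign and are Erbb4 between OLs and total RNA by library sizes alone, at -0.4829 in naive cords, -0.4798 at dpi 10 and -0.4597 at dpi 42, a scaling that moves the median of all genes down as well. Filters on low counts changed no call. With only the groups compared in the fit, the members called went from 4 to 2 for the OL change at dpi 2, from 2 to 6 and from 1 to 5 for total RNA at dpi 10 and dpi 42, from 2 to 0 for dpi 42 against dpi 2 in OLs, and from 0 to 2 for the OL-to-total ratio at dpi 10. DESeq2 called 4 and 2 for total RNA at dpi 10 and dpi 42, and 1 and 1 for the ratio at those times, and library sizes alone called 1 for the ratio at dpi 10. Without the 2 dpi 42 libraries of conflicting labels, 2 were called for total RNA at dpi 42 and 0 for dpi 42 against dpi 2 in OLs.

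3 alternatives were chosen after seeing the data. Without dpi 2 tissue 2, 4 were called for OL enrichment at dpi 2, and 1 each for dpi 42 against dpi 2 in OLs (Hbegf, newly, q = 0.043, with Erbb4 and Nrg2 lost) and in total RNA (Hbegf, with Erbb4 lost). Without naive tissue 3, 2 were called for total RNA at dpi 42. Without the 5 OL libraries high in astrocyte markers, 7 were called for OL enrichment at dpi 42, 0 for dpi 42 against dpi 2 in OLs and 1 for the ratio at dpi 10. Leaving out 1 library gave 4 to 7 members for OL enrichment at dpi 2 (lowest without dpi 2 OL 2), 1 to 3 for the OL change at dpi 10 (lowest without naive OL 1 or naive OL 2), 1 to 2 for total RNA at dpi 42 (highest without naive total 3 or dpi 42 total 2), 0 to 2 for dpi 42 against dpi 2 in OLs (lowest without dpi 42 OL 1) and, by tissue, 0 to 1 for the ratio at dpi 42 (highest without tissue 3). The cause was not tested. With libraries paired by tissue as a block, 5, 7, 6 and 5 members were called for OL enrichment at the 4 times, and a block on the replicate number changed no call of the other comparisons. Depth limits Areg and, in OLs, Nrg3.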
